A study of Solanum lycopersicum with 12 samples.

Results

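The plasma membrane intrinsic proteins (PIPs) are the aquaporins, or water channels, of the plant plasma membrane, and their genes in tomato (Solanum lycopersicum) are described here by locus. The members were taken by identifier from a list of 10 PIP1 and PIP2 loci. The list was chosen with earlier results of these data known. Of the 10 loci, 9 were found among the 35976 loci of the expression table, and Solyc09g007770 was not analysed here. The table does not pair identifiers with gene names, and 0 of its identifiers were found in the gene table used here. The identity of the loci as PIPs therefore rests on the list, and single loci are called by identifier rather than as PIP1 or PIP2 members. By their identifiers the 9 loci lie on 7 chromosomes.

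PIPs assemble as tetramers in which every subunit holds its own pore, and they carry much of the water that crosses plant cells, in root uptake as in leaves. The family has a PIP1 and a PIP2 branch. In expression assays PIP2 proteins usually conduct water by themselves, whereas many PIP1 proteins reach the membrane and conduct well only together with a PIP2 partner. Salinity lowers the water potential around the root, and changes in aquaporin transcripts and in the gating of the proteins are a known part of the response of plants to it.

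Wild-type plants sprayed with PSI-475, a biostimulant given at 2.5 mL per L, were compared with untreated plants sprayed with water, in root and in young leaf. The spray reached the foliage of plants aged 65 days, and a second one followed 27 days into salinity. All plants of the series were irrigated with 50 mM NaCl from 1 day after the first spray, so no unstressed plant enters these data, and the 4 groups share the salinity. The groups were treated root, untreated root, treated leaf and untreated leaf, with 3 libraries each, all sampled at 127 days, 2 h into darkness.

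Values are FPKM, the fragments of a locus scaled to its length and to the assigned fragments of its library. Library totals recovered from the digits of the FPKM values ran from 17108185 to 22992913 fragments. Whether the replicates of a group are separate plants is not in the labels, and p-values speak only of the variation among these libraries, part or all of which may be technical. Marker genes of leaf and root could not be looked up without gene names, so the tissue labels were not checked against markers. In whole tissue, fewer cells of a type and less RNA per cell cannot be told apart. Fragments of closely similar PIP genes may also have been split between loci when they were counted, since the treatment of reads with several matches is not given in the sources used here.

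The 9 loci spanned a wide range of levels, and 3 of them carried most of the family's expression. Solyc08g081190.3 was the highest PIP locus in each of the 4 groups, with 2193 ± 104 FPKM in treated root, 549 ± 29.0 FPKM in untreated root, 1473 ± 65.4 FPKM in treated leaf and 1199 ± 35.3 FPKM in untreated leaf (SD, n = 3 each). By mean level it ranked 14th among all loci in treated root, against 145th in untreated root. In leaf its rank was 30th with the spray and 28th without. Solyc11g069430.2 was next in every group, and Solyc12g056220.2 followed it except in untreated root, where Solyc03g096290.3 came between them. In treated leaf the libraries of Solyc12g056220.2 and Solyc03g096290.3 overlapped, so their order is not resolved there. The same holds in untreated root for Solyc06g011350.3 beside Solyc01g094690.3 and for Solyc08g008050.3 beside Solyc01g111660.3, and in untreated leaf for Solyc01g111660.3 beside Solyc01g094690.3. Solyc08g081190.3, Solyc11g069430.2 and Solyc12g056220.2 together made up 95.8% ± 0.328 of the summed PIP FPKM in treated root, 80.0% ± 0.460 in untreated root, 87.8% ± 0.247 in treated leaf and 89.2% ± 0.801 in untreated leaf (SD, n = 3 each).

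**Figure D1:**
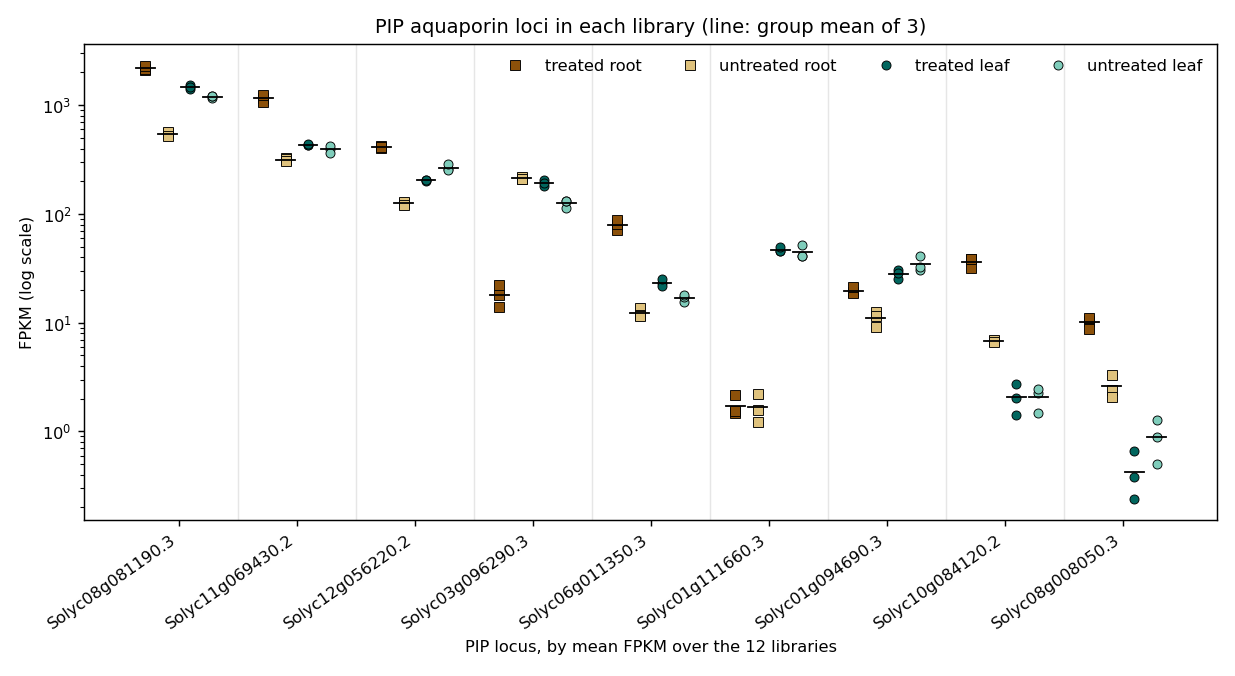
FPKM of each of the 9 PIP loci (log axis) in the 12 libraries, with squares for root, circles for leaf, dark colours for treated and light colours for untreated plants, and a line at each group mean. Treated root (leftmost in each column) stands above untreated root at 7 loci, below it at Solyc03g096290.3, and overlaps with it at Solyc01g111660.3.

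In root, PIP transcripts were higher after the spray at most loci of the family and lower at 1. Of the 9 loci, all of which averaged over 1 FPKM in both root groups, 7 rose and 1 fell in treated root, and 1 did not pass the test (limma on log2(FPKM + 1), Benjamini-Hochberg adjusted p under 0.05 over 18277 loci). Rises were common in this tissue: 52.0% of all tested loci were called higher and 24.5% lower. By at least 1 on the log2 scale, 6 of the 9 rose and 1 fell, against 12.3% and 10.2% of all tested loci. Treated and untreated roots were without overlap at 8 of the 9 loci, with treated root higher at 7 and lower at 1, against 53.6% and 25.6% of all tested loci. The median log2 change was 1.71 over the 9 loci and 0.28 over all tested loci, whose quartiles were -0.24 and 0.68. The median of all loci depended on scaling and was 0.022 with median-of-ratios scaling, where rises were 50.9% of all calls, against 68.0% as deposited and 58.0% with quantile normalization. Under that scaling the counts among the 9 loci were again 7 and 1.

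The 3 abundant loci all rose, by 3.28-fold to 4.0-fold in the mean. Solyc08g081190.3 had 2129, 2136 and 2313 FPKM in treated roots, against 557, 573 and 516 FPKM in untreated roots. All 3 treated libraries were far above the untreated ones, which gave a ratio of means of 4.0 and a difference of 2.00 on the log2 scale (SE 0.053, limma adjusted p = 2.05e-08). Relative to the median of all tested loci its log2 change was 1.72. Only 249 of the 18277 tested loci had a higher one.

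Solyc11g069430.2 had 1175, 1081 and 1248 FPKM in treated roots, against 326, 318 and 307 FPKM in untreated roots. The groups were again wide apart, by 1.88 on the log2 scale (SE 0.056, limma adjusted p = 3.52e-08). Solyc12g056220.2 had 423, 403 and 415 FPKM in treated roots, against 127, 130 and 122 FPKM in untreated roots. Its replicates were close together in both groups, and its log2 change was 1.71 (SE 0.040, limma adjusted p = 1.10e-08). The 95% intervals ran from 1.87 to 2.12 for Solyc08g081190.3, from 1.75 to 2.01 for Solyc11g069430.2 and from 1.61 to 1.80 for Solyc12g056220.2.

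Among the loci of middle and low level, the steepest rise in the family was that of Solyc06g011350.3, with 70.7, 80.7 and 88.0 FPKM in treated roots, against 13.8, 11.7 and 11.6 FPKM in untreated roots. This was a 6.45-fold higher mean and a log2 difference of 2.59 (SE 0.092, limma adjusted p = 8.51e-08), with 65 of all tested loci above it. Solyc10g084120.2 had 31.9, 38.5 and 38.6 FPKM in treated roots, against 6.78, 6.91 and 6.61 FPKM in untreated roots. It too had no overlap between groups, and its mean was 5.37-fold higher (log2 change 2.26, SE 0.081, limma adjusted p = 8.82e-08).

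Solyc08g008050.3, the lowest member over the 12 libraries, had 10.4, 8.83 and 11.0 FPKM in treated roots, against 3.33, 2.42 and 2.06 FPKM in untreated roots. These values rest on 170 to 254 fragments per treated library and 43 to 64 per untreated one. The mean was 3.87-fold higher, and the log2 change was 1.63 (SE 0.14, limma adjusted p = 1.30e-05). The added constant of 1 holds this value down, and with a constant of 5 it was 0.99.

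Solyc01g094690.3 rose least among those that rose, with 19.1, 18.6 and 21.4 FPKM in treated roots, against 9.07, 12.5 and 11.6 FPKM in untreated roots. The groups did not overlap, and the log2 change was 0.79 (SE 0.11, limma adjusted p = 0.000268). With median-of-ratios scaling it was 0.52 (limma adjusted p = 0.00369). As deposited, 3621 of the 18277 tested loci had a higher change than this locus, whose change lay 0.51 above the median of all tested loci.

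The exception in direction was Solyc03g096290.3. It had 13.8, 18.0 and 22.2 FPKM in treated roots, against 210, 219 and 210 FPKM in untreated roots. Every treated library lay far below the untreated ones, with a mean 11.8-fold lower in treated root and a log2 difference of -3.51 (SE 0.14, limma adjusted p = 1.41e-07). Only 95 of the 18277 tested loci fell further. The treated values rest on 301 to 557 fragments per library and vary more than sampling of fragments gives, with a coefficient of variation of 23.2% against 4.93% expected from counting. In untreated root the same locus had a coefficient of variation of 2.48%.

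Solyc01g111660.3 was low in root with and without the spray, with 2.17, 1.47 and 1.53 FPKM in treated roots, against 2.22, 1.57 and 1.21 FPKM in untreated roots. The groups overlapped throughout. The log2 change of 0.041 had a 95% interval from -0.35 to 0.43 (limma adjusted p = 0.835). At this level the added constant of 1 holds log2 differences down. The interval therefore cannot be set directly against the changes of the more abundant members. With a constant of 0.1 the change was 0.068 (SE 0.26). Each library held 25 to 43 fragments of this locus.

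**Figure D2:**
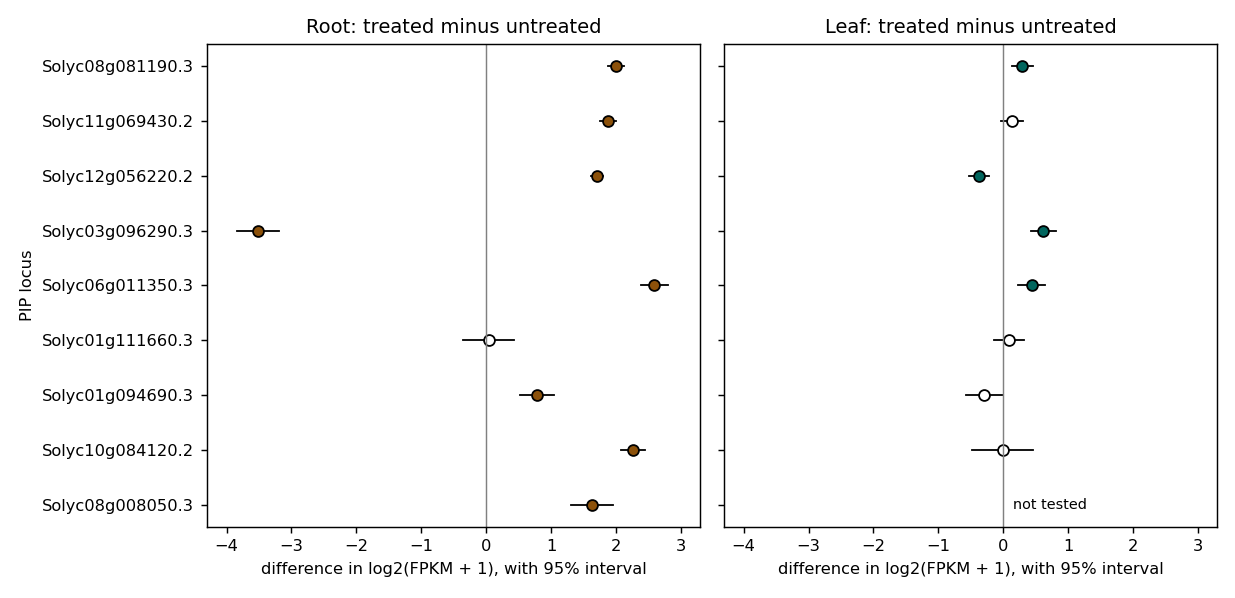
Difference in log2(FPKM + 1) between treated and untreated plants for each PIP locus in root (left) and leaf (right), with 95% intervals from limma, loci ordered by mean level. Filled points passed an adjusted p of 0.05; in root they range from -3.51 to 2.59, in leaf from -0.38 to 0.62.

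**Figure D3:**
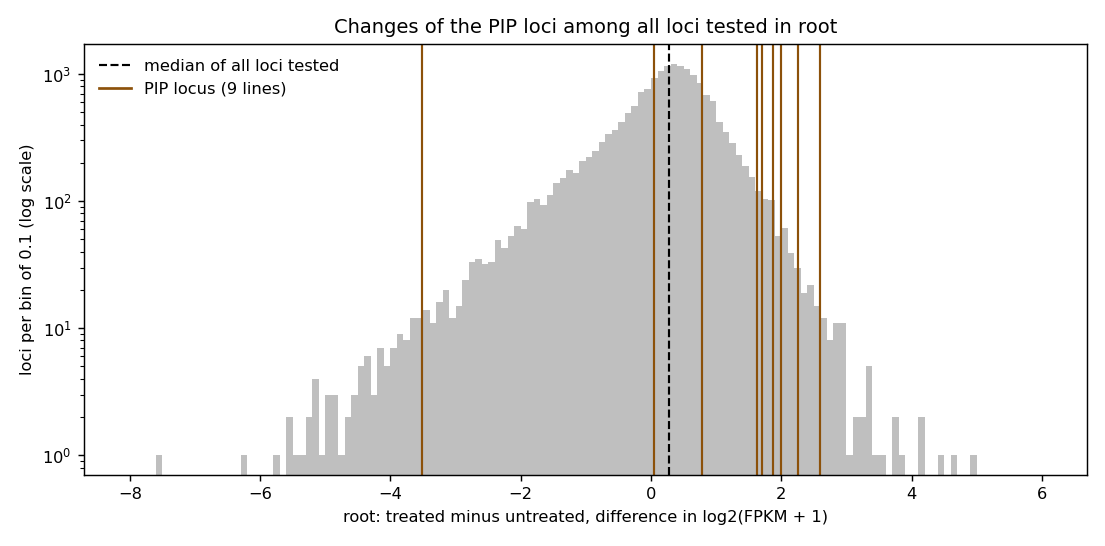
Distribution of the root differences in log2(FPKM + 1), treated minus untreated, over all 18277 loci tested (grey, log axis of counts), with the 9 PIP loci as brown lines and the median of all loci, 0.28, as a dashed line. The locus at -3.51 and the 6 loci above 1.6 lie in the outer parts of the distribution.

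The make-up of the family in root was different with the spray. Solyc03g096290.3 made up 0.455% ± 0.0899 of the summed PIP FPKM in treated root, against 17.2% ± 0.464 in untreated root (SD, n = 3 each). In order of level it was number 7 of the 9 loci in treated root and number 3 in untreated root. In treated root its libraries overlapped with those of its neighbour in the order, Solyc01g094690.3. A ratio of 2 loci within a library does not depend on the scaling of libraries. Solyc03g096290.3 stood to Solyc12g056220.2 as 0.0327, 0.0445 and 0.0535 in treated roots, against 1.65, 1.69 and 1.72 in untreated roots. The treated ratios were all far below 1 and the untreated ones all above it. Their difference holds both the fall of Solyc03g096290.3 and the rise of Solyc12g056220.2.

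Summed over the 9 loci, PIP expression was 3941 ± 194 FPKM in treated root and 1239 ± 45.5 FPKM in untreated root (SD, n = 3 each), a ratio of 3.18. The libraries had 3876, 3787 and 4159 FPKM in treated root, against 1255, 1274 and 1187 FPKM in untreated root. As a share of the summed FPKM of the whole library this was 0.587% ± 0.0304 in treated root and 0.183% ± 0.00655 in untreated root (SD, n = 3 each). The sum is carried by the 3 abundant loci, and without Solyc03g096290.3 the ratio was 3.82. With median-of-ratios scaling of the 6 root libraries the ratio over the 9 loci was 2.60. No test was made of the sum.

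**Figure D4:**
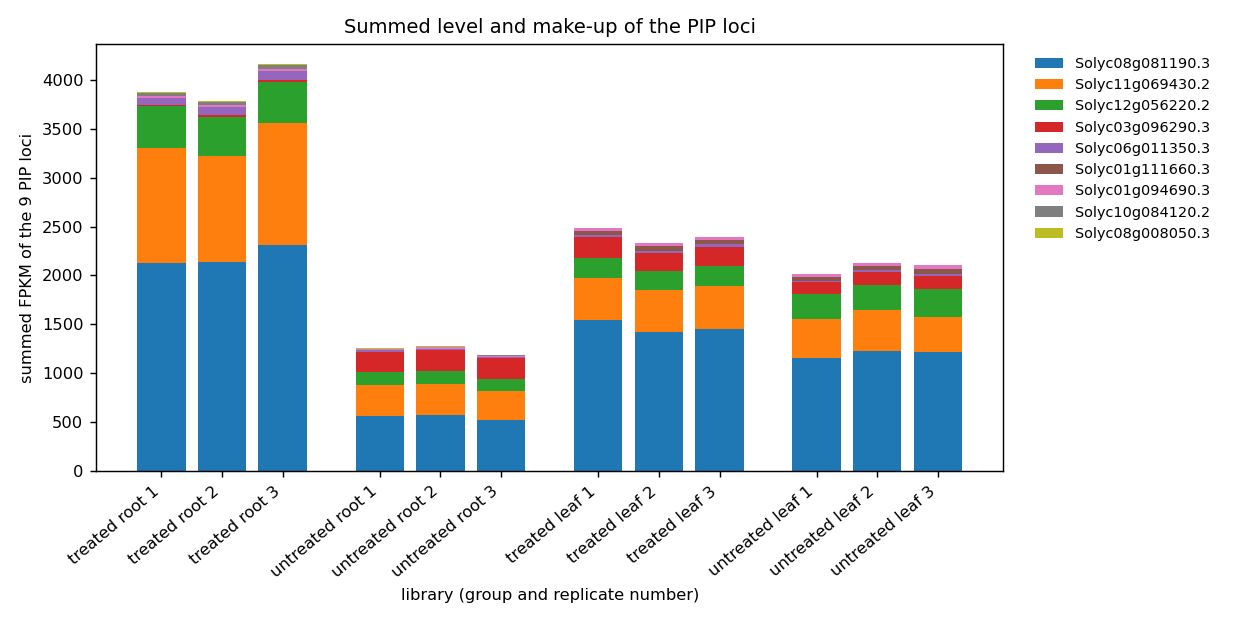
Summed FPKM of the 9 PIP loci in each of the 12 libraries, stacked by locus. Treated root libraries reach 3787 to 4159 FPKM and untreated root libraries 1187 to 1274 FPKM, and the red segment of Solyc03g096290.3 is nearly absent in treated root.

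In leaf, the tested PIP loci changed by less than 1 on the log2 scale and not in one direction. Of the 9 loci, 8 averaged at least 1 FPKM over the 6 leaf libraries and were tested; 3 rose, 1 fell and 4 did not pass (limma, adjusted p under 0.05 over 18405 loci). Over all tested loci 13.5% were called higher and 18.8% lower. None of the 8 changed by 1 or more on the log2 scale. This is near the share of all tested loci, of which 2.60% were called higher and 1.15% lower by that much. The libraries did not overlap at 5 of the 8 loci, with treated leaf higher at 4 and lower at 1, against 18.7% and 29.2% of all tested loci. The median log2 change was 0.11 over the 8 loci and -0.088 over all tested loci. Rises were 41.7% of all calls in leaf, and 56.5% with median-of-ratios scaling.

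Solyc03g096290.3, the locus that fell in root, had the largest leaf rise of the family. It had 206, 180 and 195 FPKM in treated leaves, against 114, 131 and 132 FPKM in untreated leaves. The treated leaves were all higher, by 1.54-fold in the mean or 0.62 on the log2 scale (SE 0.083, limma adjusted p = 0.00113). Within libraries it stood to Solyc12g056220.2 as 0.946 ± 0.0570 in treated leaf and 0.472 ± 0.0380 in untreated leaf (SD, n = 3 each). That ratio also holds a fall of Solyc12g056220.2, whose log2 change in leaf was -0.38. It therefore overstates the rise of Solyc03g096290.3 alone.

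Solyc06g011350.3 had 23.0, 21.8 and 25.1 FPKM in treated leaves, against 15.4, 17.4 and 18.0 FPKM in untreated leaves. The groups did not overlap, and it rose by 0.44 on the log2 scale (SE 0.091, limma adjusted p = 0.0083). The most abundant member, Solyc08g081190.3, had 1545, 1418 and 1456 FPKM in treated leaves, against 1159, 1226 and 1213 FPKM in untreated leaves. All treated libraries were higher, and the log2 change was 0.30 (SE 0.071, limma adjusted p = 0.0152). This call was not stable: it was lost with quantile normalization, where the change was -0.089 (limma adjusted p = 0.253), with no filter on low values (limma adjusted p = 0.0632), and without treated leaf replicate 1 (limma adjusted p = 0.0677) or treated leaf replicate 3 (limma adjusted p = 0.0629).

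Solyc12g056220.2 was the member that fell in leaf, with 207, 203 and 204 FPKM in treated leaves, against 259, 255 and 286 FPKM in untreated leaves. The lowest untreated value was well above the highest treated one, and the log2 change was -0.38 (SE 0.067, limma adjusted p = 0.00404). This locus rose in root, so 2 members, it and Solyc03g096290.3, were called in opposite directions in the 2 tissues.

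The other tested members gave no call in leaf. Solyc11g069430.2 had 430, 429 and 438 FPKM in treated leaves, against 396, 426 and 365 FPKM in untreated leaves; the treated libraries were higher without overlap, but the log2 change of 0.13 did not pass (95% interval -0.037 to 0.30, limma adjusted p = 0.205). Solyc01g094690.3 averaged 28.0 ± 2.66 FPKM in treated leaf and 34.8 ± 5.82 FPKM in untreated leaf (SD, n = 3 each), with overlapping groups (log2 change -0.29, limma adjusted p = 0.107). Solyc01g111660.3 averaged 47.0 ± 2.27 FPKM in treated leaf and 44.4 ± 6.42 FPKM in untreated leaf, and Solyc10g084120.2 averaged 2.06 ± 0.671 FPKM in treated leaf and 2.06 ± 0.529 FPKM in untreated leaf (SD, n = 3 each). Neither locus differed beyond the spread of its replicates. For Solyc01g111660.3 the log2 change was 0.088, and 0.20 without untreated leaf replicate 3 (limma adjusted p = 0.0521). Solyc08g008050.3 was below the filter, with 0.241, 0.658 and 0.381 FPKM in treated leaves, against 0.499, 0.881 and 1.28 FPKM in untreated leaves. It had 6 to 17 fragments per treated library and 11 to 28 per untreated one, and a difference could not be resolved at this depth.

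Summed over the 9 loci, leaf PIP expression was 2404 ± 76.7 FPKM in treated leaf and 2086 ± 60.5 FPKM in untreated leaf (SD, n = 3 each), a ratio of 1.15. The treated libraries ran from 2331 to 2484 FPKM and the untreated ones from 2017 to 2131 FPKM. Of the sum, Solyc08g081190.3 made up 61.2% ± 0.834 in treated leaf and 57.5% ± 0.0280 in untreated leaf, and Solyc03g096290.3 made up 8.05% ± 0.300 in treated leaf and 6.02% ± 0.314 in untreated leaf (SD, n = 3 each).

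The difference between the spray's effect in root and in leaf was tested as an interaction over all 12 libraries. The effect was higher in root at 7 of the 9 loci and lower in root at 1, while 46.6% of all 19324 tested loci were called higher and 20.8% lower, 67.4% in all. Higher calls were 69.2% of all calls, and 49.2% with median-of-ratios scaling. One of the 7, Solyc08g008050.3, passed the filter on low values only through root. Solyc03g096290.3 had the widest gap in the family, with an effect in root minus effect in leaf of -4.13 (SE 0.18, limma adjusted p = 2.15e-09). Of all tested loci, 71 had a lower value. For Solyc12g056220.2, which fell in leaf and rose in root, the difference was 2.09 (SE 0.074, limma adjusted p = 5.14e-10). For Solyc01g111660.3 it was -0.047, with a 95% interval from -0.49 to 0.40 (limma adjusted p = 0.851).

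Root and leaf were also compared with and without the spray, to describe where each locus is expressed. With the spray, 6 of the 9 loci were higher and 3 lower in root than in leaf, and 44.9% of all 19324 tested loci were called higher and 33.4% lower. Without the spray, 3 were higher and 6 lower in root, against 33.1% and 48.1% of all tested loci. Higher calls were 40.7% of all calls without the spray, and 51.5% with quantile normalization. The 3 abundant loci and Solyc06g011350.3 were higher in root than in leaf among treated plants and lower in root among untreated ones, and Solyc03g096290.3 did the reverse. Solyc08g008050.3, higher in root in both states, passed the filter through its root level alone.

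Solyc08g081190.3 had a log2 difference of root minus leaf of 0.57 in treated plants (SE 0.059, limma adjusted p = 1.57e-06) and of -1.13 in untreated plants (SE 0.059, limma adjusted p = 1.45e-09). Solyc12g056220.2 had 1.01 in treated and -1.07 in untreated plants. Solyc03g096290.3 had -3.38 in treated plants (SE 0.13, limma adjusted p = 5.71e-11) and 0.76 in untreated plants (SE 0.13, limma adjusted p = 0.000111). This member thus stood on the other side from the 3 abundant ones in both states. For Solyc11g069430.2 the difference was 1.43 in treated and -0.32 in untreated plants. For Solyc06g011350.3 it was 1.73 in treated and -0.43 in untreated plants. With median-of-ratios scaling the untreated difference of Solyc11g069430.2 (limma adjusted p = 0.238) and that of Solyc06g011350.3 (limma adjusted p = 0.0624) were not called, and with quantile normalization that of Solyc06g011350.3 was -0.14 (limma adjusted p = 0.218) and was not called either.

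Other loci kept one direction between the tissues. Solyc01g111660.3 had the lowest log2 differences of root minus leaf in the family, -4.14 in treated plants and -4.10 in untreated plants. Root held 3.68% of the leaf mean in treated plants and 3.75% in untreated plants. Of the summed PIP FPKM this locus made up 1.95% in treated leaf and 2.13% in untreated leaf. It averaged 1.73 ± 0.388 FPKM in treated root and 1.67 ± 0.508 FPKM in untreated root (SD, n = 3 each). Solyc01g094690.3 was lower in root in both states, with log2 differences of -0.48 in treated plants and -1.57 in untreated plants. Solyc10g084120.2 was higher in root, with 17.7-fold the leaf mean in treated plants and 3.28-fold in untreated plants. Solyc08g008050.3 was higher in root as well, at 10.1 ± 1.11 FPKM in treated root and 0.427 ± 0.212 FPKM in treated leaf (SD, n = 3 each).

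**Figure D5:**
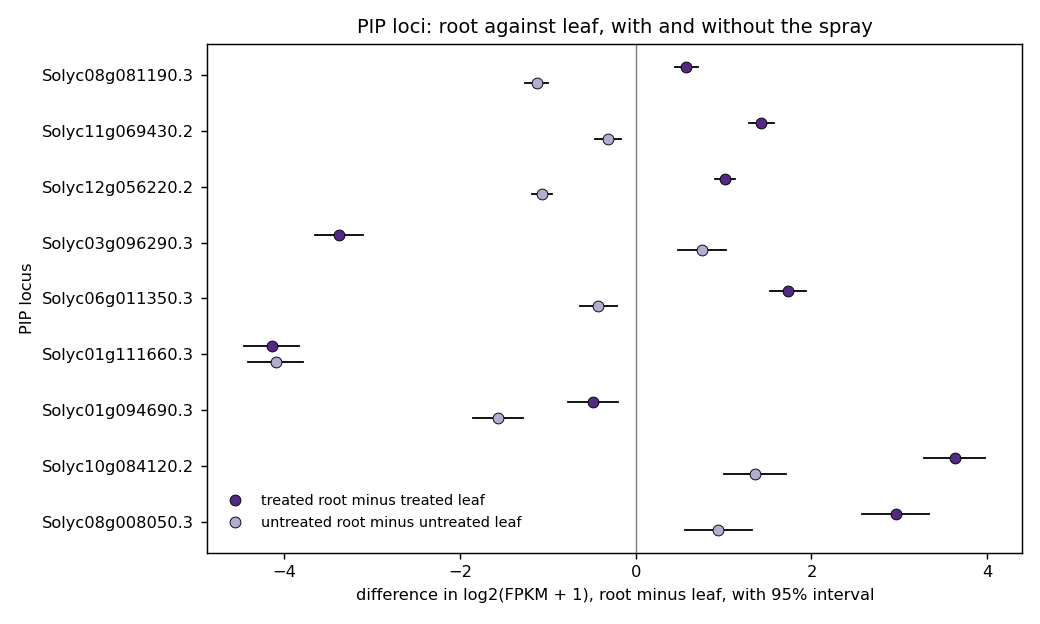
Difference in log2(FPKM + 1), root minus leaf, for each PIP locus in treated plants (dark) and untreated plants (light), with 95% intervals from limma. At 5 loci the points lie on opposite sides of 0: the difference of Solyc03g096290.3 is -3.38 in treated and 0.76 in untreated plants, and that of Solyc08g081190.3 is 0.57 in treated and -1.13 in untreated plants.

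In their pattern over the 12 libraries, the members nearest to each other were Solyc08g081190.3 and Solyc12g056220.2, with a root mean square difference of 0.293 between their centred log2(FPKM + 1) values, followed by Solyc11g069430.2 and Solyc06g011350.3 at 0.300. For Solyc10g084120.2 and Solyc08g008050.3, both higher in root, the value was 0.458. Of the loci that are not members, 79 were closer to Solyc08g081190.3 than Solyc12g056220.2 was. The count was 108 for Solyc11g069430.2 beside Solyc06g011350.3, and 148 for Solyc10g084120.2 beside Solyc08g008050.3. Among the 19315 other loci the closest to Solyc08g081190.3 was Solyc03g113270.3, at 0.130, and the next was Solyc09g010360.3, at 0.145. The median over the loci searched was 0.831. Solyc03g113270.3 had 474 ± 4.76 FPKM in treated root, 142 ± 3.61 FPKM in untreated root, 339 ± 11.5 FPKM in treated leaf and 311 ± 31.5 FPKM in untreated leaf (SD, n = 3 each). Solyc09g010360.3 was far lower, with means of 8.44 FPKM in treated root and 0.967 FPKM in untreated root. In leaf it averaged 4.72 FPKM with the spray and 3.25 FPKM without. At such levels the added constant of 1 holds log2 differences down, which bears on its likeness. These likenesses describe 12 libraries that share 4 groups, and carry no test.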

How the data were processed

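Roots and young leaves gave 12 RNA libraries, from 30 mg of tissue each, per the labels' protocols. The authors deposited FPKM for 35976 loci. Tools named in the submitters' processing notes are DESeq2, featureCounts and fastp, with no versions. Aligner, genome build, annotation and strandedness were not given in the sources used here. Whole fragments and locus lengths were recovered from the FPKM digits (tolerance 1e-05), and 95.6% of the lengths between 500 and 3000 bases came out whole within 0.01. No 2 replicates agreed within sampling noise (chi-square over degrees of freedom 2.18 to 16.5). The highest values, 16.5 and 12.7, were those of untreated leaf replicate 3 against replicates 1 and 2 of its group.

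Loci that averaged at least 1 FPKM in a fit were tested on log2(FPKM + 1) in limma 3.58.1 (R 4.3.3; eBayes with a trend, 2-sided), and p-values were adjusted over all of them by Benjamini-Hochberg. Root and leaf were each fitted on 6 libraries, the other comparisons on 12. The fit was also run on simulated data with few changed loci and a common spread. That setting is unlike these data, and no conclusion is drawn from it. Members and lists were chosen with earlier results of these data known. All members are named, together with the 2 other loci nearest in pattern to the highest member. The planned lists of other aquaporins and of tissue markers needed gene names and were not evaluated. No sequences were used. Figures were drawn with matplotlib 3.10.9.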

Additional observations from a re-analysis of the deposited data

Results flagged for a closer look

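The effect of the spray differed between root and leaf at 8 of the 9 loci, by the interaction test in limma at an adjusted p under 0.05; 67.4% of all tested loci passed it. The differences, as effect in root minus effect in leaf on the log2(FPKM + 1) scale, were 2.27 for Solyc10g084120.2, 2.16 for Solyc06g011350.3, 2.09 for Solyc12g056220.2, 2.02 for Solyc08g008050.3, 1.75 for Solyc11g069430.2, 1.70 for Solyc08g081190.3, 1.08 for Solyc01g094690.3 and -4.13 for Solyc03g096290.3. Solyc08g008050.3 passed the filter on low values only through root, and its leaf values rest on 6 to 28 fragments per library. Its difference was 1.1 with a pseudocount of 5, 2.83 with a pseudocount of 0.1 and 3.01 with limma-voom on recovered fragments. That of Solyc01g094690.3 was 0.71 with median-of-ratios scaling.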

How the results depend on the processing

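Alternatives varied the pseudocount, filter, scaling, trend, weights, replicate block, number of libraries fitted and single libraries left out, and recovered fragments were tested with limma-voom. The counts of members called in root, in the interaction and between treated tissues stayed at 7 and 1, 7 and 1, and 6 and 3 without any 1 library. In leaf, 2 to 3 members were higher and 1 lower, and between untreated tissues 3 were higher and 6 lower. Of 922 alternative values of single members, 900 kept direction and side of the threshold, 7 lost the call and 15 turned sign. Of those 15, 14 concern members without a call. For Solyc01g111660.3 the root change was -0.14 with median-of-ratios scaling, -0.097 with quantile normalization, and from -0.085 to 0.18 without 1 library. Its interaction was 0.0080 in TPM and from -0.17 to 0.097 without 1 library. For Solyc10g084120.2 the leaf change was 0.043 with median-of-ratios scaling and from -0.17 to 0.15 without 1 library. The called one was Solyc08g081190.3 in leaf, at -0.089 with quantile normalization. The cause was not tested.

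With median-of-ratios scaling the summed FPKM ratios were 2.60 in root, 1.22 in leaf, 1.46 for treated root over treated leaf and 0.693 for untreated root over untreated leaf, against 3.18, 1.15, 1.64 and 0.594 as deposited. Without 1 library they ran from 3.09 to 3.24, 1.13 to 1.17, 1.59 to 1.67 and 0.584 to 0.606. Over all loci, leaf falls numbered 2283 with median-of-ratios scaling, and 2095 or 2022 when treated leaf replicate 1 or 3 was left out, against 3464, and 5673 loci had a higher effect in root with median-of-ratios scaling, against 9008. With a pseudocount of 5 the difference of Solyc08g008050.3 was 1.47 between treated tissues and 0.37 between untreated ones, and that of Solyc10g084120.2 was 0.74 between untreated ones.

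Same-numbered libraries of treated and untreated groups did not deviate together (r from -0.238 to 0.0938 over loci), so the numbers are not taken as pairs. With the replicate block 7 members were higher and 1 lower in root, and in leaf the call on Solyc08g081190.3 was lost (log2 change 0.30, limma adjusted p = 0.083).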
